A study of Mus musculus with 4 samples.

Results

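The inhibitor of differentiation genes Id1, Id2 and Id3 and the E-protein genes Tcf3, Tcf4 and Tcf12 were followed in cultured mouse blood progenitors, with 4 samples hybridised to 1 Affymetrix array each. These 6 genes were taken by name, each from a probe set whose platform annotation gives that single gene symbol, out of 30142 genes so measured. Probe sets of one gene were chosen by their mean signal over the 4 arrays, a value blind to the groups, but each of the 6 genes had just 1. The genes were picked with earlier results of these arrays known. The cells were lineage-negative, c-Kit-positive (LK) cells of NOD mice, a strain prone to autoimmune diabetes, and such a sorted fraction holds stem cells together with committed progenitors. All samples were kept for 4 h at 37 °C in StemSpan medium, 2 with DMSO as vehicle and 2 with the glucocorticoid dexamethasone (10 µM) plus dmPGE2 (10 µM), a stable analog of prostaglandin E2, called the combination below. No array carried either drug alone, and the labels give neither age nor sex of the mice. Duplicates are described as biological in the series' text, with no word on pooling of mice, so p-values measure the spread between these samples only.

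E proteins are basic helix-loop-helix transcription factors that bind E-box DNA as pairs, with themselves or with tissue-restricted partners such as TAL1. ID proteins carry the helix-loop-helix part but lack the basic region that contacts DNA, so a pair of an ID protein and an E protein cannot bind. In blood, E proteins drive lymphoid genes and limit the cycling of progenitors, and the ID proteins oppose them in the innate lymphoid, dendritic and myeloid lineages. ID genes are textbook targets of bone morphogenetic protein (BMP) signalling through SMAD factors.

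Upstream sequences from RefSeq (GRCm38.p6) are shown for Id2 and Tcf3, the 2 of the 6 genes whose arrays separated by group, and for Id3, a close relative of Id2 that did not. Of the 7 genes looked for, the 6 members and Id4, windows of 5 were used. Entries on the chromosome that carries Tcf4 were left out, so Tcf4 could not be among them. Id1 matched no entry. The windows are the 250 bases before the annotated start, 5′ to 3′ on the gene's strand: chr12:25096093-25096342 on the minus strand for Id2, chr4:136143572-136143821 on the plus strand for Id3 and chr10:80433636-80433885 on the minus strand for Tcf3. Capitals mark matches, on either strand, to the E-box CANNTG, the CCAAT box, the element GGCGCC bound by SMAD factors in BMP-responsive genes and the cAMP response half-site TGACG.
Id2: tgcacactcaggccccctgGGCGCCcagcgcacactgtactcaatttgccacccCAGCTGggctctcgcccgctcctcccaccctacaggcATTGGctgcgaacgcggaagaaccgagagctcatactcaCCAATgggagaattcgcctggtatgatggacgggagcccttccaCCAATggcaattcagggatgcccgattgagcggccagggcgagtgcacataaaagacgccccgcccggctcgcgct
Id3: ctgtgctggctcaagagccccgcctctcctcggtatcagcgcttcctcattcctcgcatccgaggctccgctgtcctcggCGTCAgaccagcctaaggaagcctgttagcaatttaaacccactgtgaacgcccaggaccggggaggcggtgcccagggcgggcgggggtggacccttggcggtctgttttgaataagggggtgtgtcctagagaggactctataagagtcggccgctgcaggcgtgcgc
Tcf3: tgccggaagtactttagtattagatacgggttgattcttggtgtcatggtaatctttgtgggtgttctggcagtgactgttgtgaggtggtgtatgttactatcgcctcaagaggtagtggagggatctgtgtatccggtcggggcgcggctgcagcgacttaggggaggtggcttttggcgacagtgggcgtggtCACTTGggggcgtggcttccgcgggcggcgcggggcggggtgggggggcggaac
The Id2 window holds 1 E-box, CAGCTG, starting 196 bases before the start, 1 GGCGCC at 231 bases and 3 CCAAT boxes at 159 (read as ATTGG), 120 and 76 bases. The Id3 window holds 1 half-site, read as CGTCA, at 170 bases and no match to the other 3 motifs. The Tcf3 window holds 1 E-box, CACTTG, at 54 bases. These motifs are not particular to the windows shown. The Id4 window holds 1 GGCGCC at 148 bases, 2 CCAAT boxes at 240 and 198 and 1 half-site at 229. Of the 3 Tcf12 windows, 1 holds 2 CCAAT boxes and the others 1 E-box each. Among all 32851 promoter windows of the same length, 66.2% hold an E-box, 33.8% a CCAAT box, 17.8% a TGACG half-site and 9.59% a GGCGCC. The full cAMP response element TGACGTCA, which contains the half-site and occurs in 1.55% of windows, has no match in the windows of Id2, Id3, Id4, Tcf3 or Tcf12. The core ACANNNTGT of the glucocorticoid response element, in 5.84% of windows, matches 1 of the 3 Tcf12 windows and none of the other genes just named. A match is a description of the letters and says nothing about binding.

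Id2 had the largest difference of the 6 genes and was higher in both combination samples. It encodes the ID protein needed for innate lymphoid cells and for cross-presenting dendritic cells. Its signal on the log2 scale was 6.62 and 6.29 in the vehicle samples and 9.04 and 9.84 in the combination samples. The groups did not overlap, and the lower combination array lay 2.42 above the higher vehicle array. Group means were 6.45 ± 0.23 (SD, n = 2) and 9.44 ± 0.57 (SD, n = 2). The difference was 2.98 (SE 0.31, 95% interval 2.16 to 3.81), or 7.92-fold. Ordered by difference, Id2 was number 28 from the top among the 30142 genes, and 0.0995% of genes differed by more in either direction. In limma, with Benjamini-Hochberg adjustment over all 65956 features, its adjusted p was 0.26, so it did not pass the threshold of 0.05, which 2 features did (0.00303%). Its unadjusted limma p was 0.00033. The difference was 2.42 between the 2 arrays numbered 1 and 3.55 between the 2 numbered 2.

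**Figure D1:**
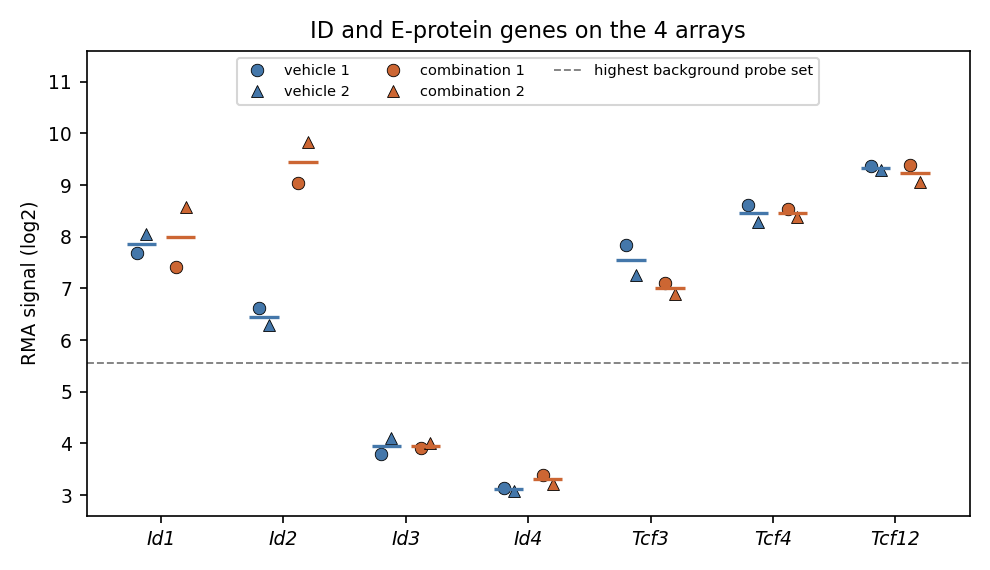
RMA signal (log2, vertical axis) of the ID and E-protein genes on each array: circles are arrays numbered 1, triangles arrays numbered 2, blue is vehicle, orange is the combination and short lines are group means (n = 2). Id2 averages 6.45 with vehicle and 9.44 with the combination, while Id1, Tcf4 and Tcf12 overlap between groups; Id3 and Id4 lie below the dashed line at 5.55, the highest value of any background probe set.

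Id1, a direct target of BMP signalling in many cells, was higher in sample number 2 of each group. It was at 7.69 and 8.05 in the vehicle samples and at 7.42 and 8.57 in the combination samples. The groups overlapped, since the combination arrays were the lowest and the highest of the 4. The difference was 0.13 (95% interval -0.97 to 1.22, limma adjusted p = 0.99). Within sample number 1 it was -0.27 and within number 2 it was 0.52, so the direction was not shared. The interval is wide enough to include a 2-fold higher signal.

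Id3, which restrains E proteins in lymphocytes after receptor signals, was dim on every array. Its signal was 3.79 and 4.10 with vehicle and 3.90 and 4.01 with the combination, below 5.55, the highest value of the 23 background probe sets. The groups overlapped, and the difference was 0.01 (95% interval -0.42 to 0.45). Its sign turned when the arrays were centred on their medians or quantile-normalized a second time. Centring lowers the differences of all genes by the same amount, so a turn in so small a difference carries little. Id4, the remaining gene of the family and known mainly from the nervous system, was dimmer still, at 3.14 and 3.09 against 3.39 and 3.22. Both combination arrays of Id4 lay above both vehicle arrays, by 0.08, with a difference of 0.19 (95% interval -0.17 to 0.55, limma adjusted p = 0.95). For 2 probe sets this near background, signals are compressed and a difference in transcript could be larger than the array shows.

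Among the E proteins, Tcf3 was lower in both combination samples, though by less than 2-fold. Tcf3 encodes E2A, the E protein required at the start of the B cell lineage. Its signal was 7.85 and 7.25 with vehicle and 7.10 and 6.90 with the combination. The groups did not overlap, but the gap between them was 0.15 and the vehicle arrays themselves lay further apart than that. Means were 7.55 ± 0.42 (SD, n = 2) and 7.001 ± 0.15 (SD, n = 2), a difference of -0.55 (SE 0.24, 95% interval -1.19 to 0.09). The limma adjusted p was 0.92 and the unadjusted p 0.078. Within sample number 1 the difference was -0.74, and within number 2 it was -0.35. Without vehicle 1 the difference was -0.25, and without vehicle 2 it was -0.85, so its size rests on which vehicle array is read. E2A is spliced into isoforms that 1 probe set cannot tell apart.

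Tcf4 and Tcf12 showed no separation of the groups. Tcf4, the E protein that defines plasmacytoid dendritic cells and not the similarly nicknamed Wnt effector, was at 8.62 and 8.29 with vehicle and 8.53 and 8.37 with the combination. Both combination values lay between the vehicle values. The difference was 0.002 (95% interval -0.46 to 0.46, limma adjusted p = 0.999). Its sign turned when arrays were centred, which lowers the differences of all genes by the same amount. Tcf12 encodes HEB, the E protein that works beside E2A in thymocytes. It was at 9.37 and 9.29 with vehicle and 9.39 and 9.07 with the combination. The difference was -0.10 (95% interval -0.54 to 0.34, limma adjusted p = 0.98), and the groups overlapped. For both genes the intervals leave room for changes of up to about the size seen in Tcf3, and none as large as that of Id2.

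**Figure D2:**
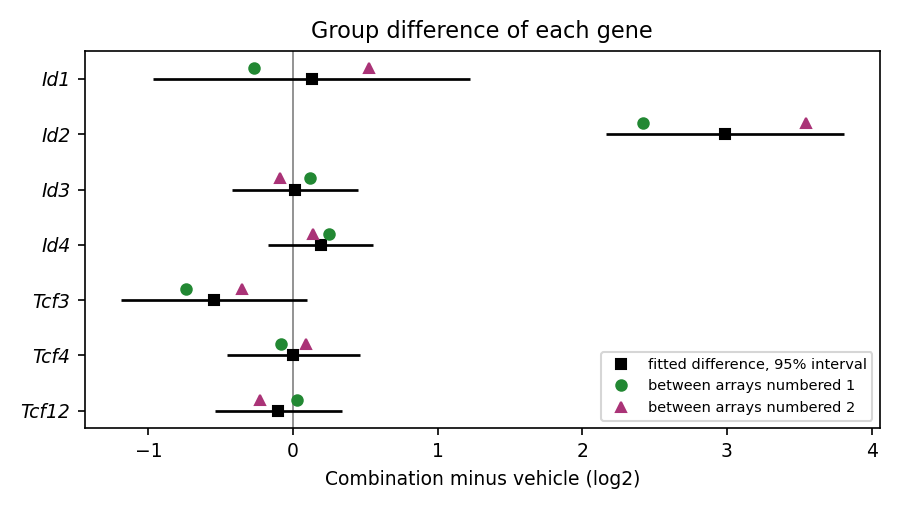
Combination minus vehicle (log2, horizontal axis) for each gene: squares are limma's fitted differences with 95% intervals as bars, circles the difference between arrays numbered 1 and triangles that between arrays numbered 2. The Id2 interval runs from 2.16 to 3.81, and the other 6 intervals include 0.

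Counted together, 0 of the 6 genes passed limma's adjusted threshold, and 1, Id2, had an unadjusted limma p under 0.05. Of all 30142 genes, 2.66% were higher and 2.65% lower at that unadjusted p, and 0.72% were higher with a 2-fold difference as well, as Id2 was. Groups did not overlap for 2 of the 6, Id2 higher and Tcf3 lower. Over all genes, 19.7% had both combination arrays above both vehicle arrays and 15.4% had both below, so separation of the arrays by itself is common here. Whether the difference of Id2 exceeds those of its relatives was not tested.

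The profiles nearest to Id2 belonged to genes of other families. Over the 4 arrays, with each gene centred on its own mean, the smallest Euclidean distances among 19042 other protein-coding genes were those of Fst (0.13), Cxcl3 (0.23) and B3gnt5 (0.32). Fst encodes follistatin, a secreted antagonist of activins and some BMPs, and its signal was 4.75 and 4.61 with vehicle, within the background range, against 7.25 and 8.05 with the combination. Cxcl3, a neutrophil-attracting chemokine, was at 5.78 and 5.45 against 8.03 and 8.74. B3gnt5, a glycosyltransferase of lacto-series glycolipids, was at 7.12 and 7.19 against 9.94 and 10.56. All 3 were higher in both combination arrays, and highest in combination 2, as Id2 was. For Tcf3 the nearest were Sart3 (0.037), Pdp2 (0.041) and Clcc1 (0.048). These 3 genes shared its high value in vehicle 1 (7.47 for Sart3, 8.28 for Pdp2 and 9.20 for Clcc1), and for Sart3 the other arrays read 6.88, 6.69 and 6.49. The 4 arrays fall into 2 groups, so this nearness is a description.

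**Figure D3:**
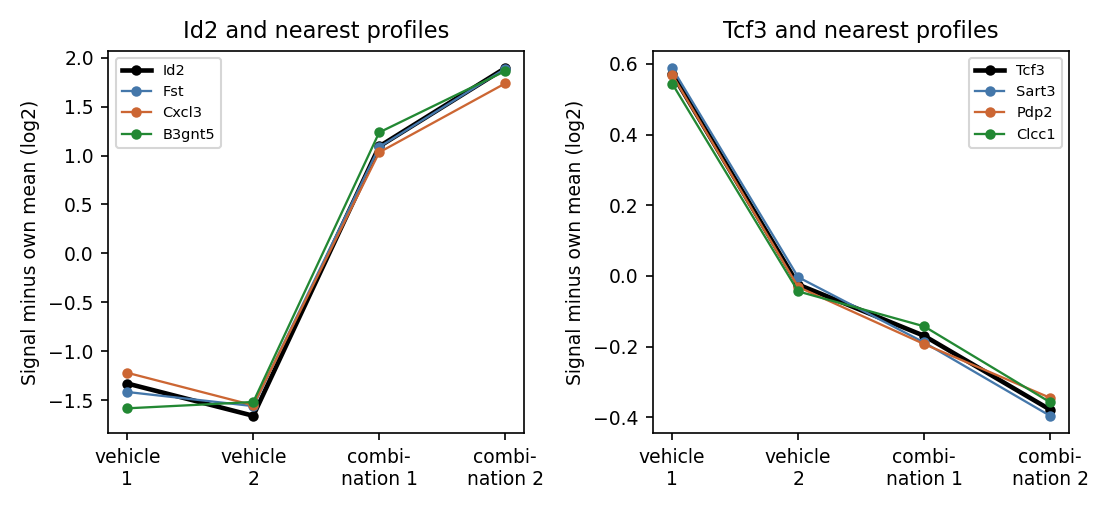
Signal minus the gene's own mean (log2, vertical axis) on each of the 4 arrays (horizontal axis) for Id2, left, and Tcf3, right, in black, each with its 3 nearest protein-coding genes in colour. The lines for Id2, Fst, Cxcl3 and B3gnt5 are higher on both combination arrays than on both vehicle arrays; those for Tcf3, Sart3, Pdp2 and Clcc1 are highest in vehicle 1.

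Partners that E proteins bind were mostly dim, and the 3 with an unadjusted limma p under 0.05 were lower. Of 34 tissue-restricted helix-loop-helix factors and complex partners, 31 were measured and 19 of these had both group means within the range of background probe sets. None passed limma's adjusted threshold. At an unadjusted limma p under 0.05, 0 were higher and 3 lower, against 2.66% and 2.65% of all genes. Cbfa2t3 encodes ETO2, a corepressor bound by E proteins, and was at 7.44 and 7.63 with vehicle against 6.95 and 6.83 (difference -0.65, limma adjusted p = 0.67). Lmo2, the bridge between TAL1 and GATA factors, was at 8.34 and 8.20 against 7.65 and 7.71 (difference -0.59, limma adjusted p = 0.69). Cbfa2t2, a relative of ETO2, differed by -0.42 and Nhlh1, a neuronal factor at background, by 0.31. The list's median difference was 0.018, against 0.014 over all genes, and it was -0.23 over the 13 genes left without dim features.

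Helix-loop-helix genes of other classes differed in both directions. Of 28 listed, 27 were measured, with 3 higher and 3 lower at an unadjusted limma p under 0.05 and 0 past the adjusted threshold. Over all genes, 2.66% were higher and 2.65% lower at that unadjusted p. Hif1a, the oxygen-regulated factor, was at 10.92 and 11.16 with vehicle and 11.98 and 12.65 with the combination (difference 1.28). Max, the partner of MYC, was at 13.43 and 13.18 against 12.59 and 12.68 (difference -0.67). Myc itself differed by -0.77 and Mitf, a factor of mast cells and melanocytes, by 0.89. The remaining pair of this count, Mxd1 (1.27) and Usf2 (-0.95), lies outside the naming rule and was chosen after its values were seen. The median difference was -0.06. These factors mostly pair within their own classes, and ID proteins are not their usual partners.

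Lymphoid genes that E proteins activate had a median difference close to that of all genes. Of 35 listed, 31 were measured, 19 of them with both means in the background range, and the median difference was 0.010. None passed limma's adjusted threshold. At an unadjusted limma p under 0.05, 1 was higher and 3 were lower, against 2.66% and 2.65% of all genes. Il7r, the interleukin-7 receptor chain, was at 5.44 and 6.03 with vehicle and 7.24 and 8.21 with the combination (difference 1.99, 3.98-fold, limma adjusted p = 0.58). Blnk, an adaptor of the B cell receptor, was at 5.14 and 5.69 against 4.42 and 4.60 (difference -0.90). Erg, a stem cell factor, differed by -0.57 and Ebf1, which sets the B cell fate downstream of E2A, by -0.55, from 5.03 ± 0.27 to 4.49 ± 0.03 (SD, n = 2). The groups of all 4 did not overlap, but they were named for their small p, so this separation adds no support. Of the 31 genes, 3 were higher and 7 lower without overlap, against 19.7% and 15.4% of all genes. Both group means of Blnk and of Ebf1 lay within the background range. Cdkn1a, a cell cycle inhibitor often cited as an E-protein target, was outside the naming rule, was chosen after its values were seen, and overlapped between groups at 13.92 and 14.30 against 14.09 and 15.00.

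The BMP and TGF-beta pathway, upstream of ID genes, held Fst, the gene whose measured signals lay closest to those of Id2 in profile. All 35 listed genes were measured, 25 differed upward and 10 downward, and the median was 0.11. Of all 30142 genes, 16030 differed upward and 14112 downward. At an unadjusted limma p under 0.05, 5 were higher and 1 lower, against 2.66% and 2.65% of all genes. The adjusted threshold was passed by 0. Groups did not overlap for 15 higher and 3 lower genes, against 19.7% and 15.4% of all genes. Both means lay in the background range for 16 of the 35. The list mixes ligands and receptors with antagonists such as Fst, so its median gives no direction of signalling. The measured signals of Fst differed by 2.97 (limma adjusted p = 0.24), but both its vehicle values lay in the background range, so no exact fold can be read. Tgfb3, a ligand, was at 3.91 and 3.97 against 4.55 and 4.52 (difference 0.60), in the background range throughout. The activin receptor gene Acvr2a was at 5.60 and 5.84 against 6.39 and 6.18 (difference 0.57), and the signal transducer gene Smad3 at 6.09 and 5.96 against 5.60 and 5.48 (difference -0.48). Tgfbr2 (0.70) and Tgfb2 (0.36) complete the count and were chosen after their values were seen. The BMP-type SMAD genes Smad1 and Smad5 and the receptor gene Bmpr2, also picked afterwards, had differences of 0.10, -0.16 and 0.23.

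Other factors reported upstream of ID genes included cAMP-responsive and myeloid genes. Of 22 listed, 20 were measured, with 0 past the adjusted threshold and a median of -0.08. At an unadjusted limma p under 0.05, 3 were higher and 1 lower, against 2.66% and 2.65% of all genes. Crem, a cAMP-induced factor, was at 6.26 and 5.82 with vehicle and 7.79 and 7.80 with the combination (difference 1.75, limma adjusted p = 0.29). Zbtb16, which encodes the innate lymphoid factor PLZF, was at 6.12 and 5.96 against 6.83 and 6.70 (difference 0.73), and Cebpb, a myeloid factor, differed by 0.47. Irf8, a factor of monocytes and dendritic cells, was at 7.33 and 8.62 against 6.34 and 6.65 (difference -1.48). Among genes for ID protein turnover and partners outside the helix-loop-helix class, 15 of 17 were measured. The median was -0.17, and 0 passed the adjusted threshold. At an unadjusted limma p under 0.05, 1 was higher and 0 were lower, against the same shares of all genes. That 1 was Ets2, an ETS factor (0.75, from a vehicle mean in the background range). The count was 0 after a second quantile normalization, without dim features, with control rows kept and without either vehicle array. The next genes were Skp2 (-0.58), a ubiquitin ligase subunit, Rb1 (-0.52), the retinoblastoma protein to which ID2 can bind, and Wdr48 (-0.33), a cofactor of the deubiquitinase USP1.

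**Figure D4:**
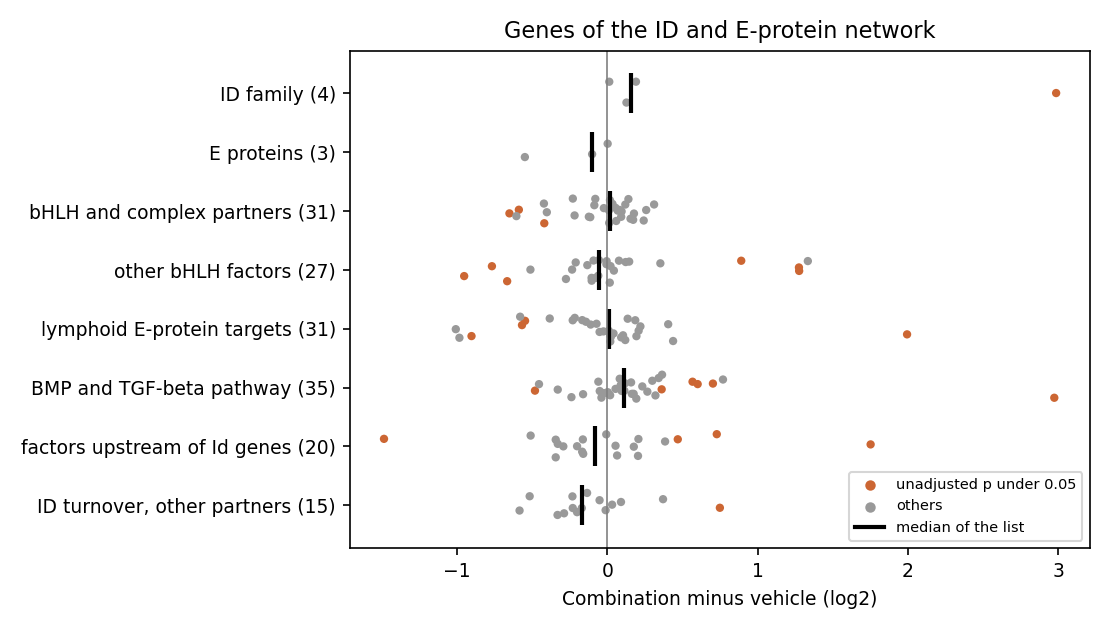
Combination minus vehicle (log2, horizontal axis) for every measured gene of the 8 lists, with the number measured in brackets; orange points have an unadjusted limma p under 0.05 and black lines are list medians, and the vertical position within a row carries no meaning. Id2 in the top row and Fst in the BMP and TGF-beta row are the 2 points near 3, and the medians lie between -0.17 and 0.16.

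Id2 is also expressed by several differentiated cells. Selecting lineage-negative cells is meant to remove mature cells of these kinds, but their share in these samples was not tested. Marker lists of these cells had median differences from -0.33 to 0.04, while single genes in them differed by far more in both directions, as given below. In bulk samples, more cells of a type and more RNA per cell cannot be told apart. For comparison, 16030 of all 30142 genes differed upward and 14112 downward. At an unadjusted limma p under 0.05, 2.66% of all genes were higher and 2.65% lower. Of conventional dendritic cell markers, 6 of 8 differed downward, 3 at an unadjusted limma p under 0.05 (Cd209a by -2.25, Batf3 by -1.20, H2-Ab1 by -0.94), and the list's mean signal was 5.86 and 6.05 with vehicle against 5.36 and 5.33. Defining markers Xcr1 and Clec9a were within the background range in both groups. For natural killer and innate lymphoid cells, 6 of 8 markers were in the background range in both groups, Ncr1 and Klrb1c among them. The mean signal of that list was 5.53 and 5.64 against 5.74 and 5.84, but 4 genes differed upward and 4 downward (median 0.01). At an unadjusted limma p under 0.05, 0 were lower and 1, Il7r, was higher as given. Among 9 monocyte and macrophage markers, 3 were higher and 3 lower at that p. Higher were F13a1 (2.92), Cd14 (2.43) and C1qb (1.09, from a vehicle mean in the background range). Lower were Ccr2 (-1.77), Csf1r (-0.91) and Adgre1 (-0.56). The list's mean signal was 7.97 with vehicle and 8.25 with the combination. Of 12 neutrophil markers 7 differed upward and 5 downward (median 0.04), Ly6g (-0.33) and Mpo (-0.24) among the latter. At that p 0 were lower and 2 higher, Cxcr2 (4.32) and Mmp8 (2.43, from a vehicle mean in the background range). Camp differed more between sample numbers, at 13.51 and 7.63 with vehicle against 12.80 and 8.41. Mean signals of the neutrophil list were 11.95 and 10.63 against 12.29 and 11.39. The part of the monocyte and neutrophil genes in the difference of Id2 was not tested.

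Kit, a marker of the sorted population, lay above the background range in both groups. It was at 10.18 and 10.32 with vehicle and 10.51 and 9.62 with the combination. Of 10 stem and progenitor markers listed, 8 were measured, 2 of them in the background range in both groups. Among the 8, 0 were higher and 1, Myb (-0.51), was lower at an unadjusted limma p under 0.05. All 6 measured T cell markers and 5 of 7 B cell markers lay in the background range in both groups. Of 8 plasmacytoid dendritic cell markers, which go with Tcf4, 5 lay in the background range in both groups, so the median difference of 0.02 rests mostly on dim signals. At that p 0 of them were higher and 1, Irf8, was lower as given, and its part in the values of Tcf4 was not tested. All 6 measured erythroid markers differed downward (median -0.28), as did 14112 of all 30142 genes. Tfrc (-0.79) alone was lower at that p, at which 2.65% of all genes were lower and 2.66% higher. Sample numbers, though, differed more than groups, with mean signals of 11.64 and 10.66 with vehicle and 11.19 and 10.37 with the combination. Tcf3 was likewise higher in number 1 of each group, and the part of the erythroid genes in its spread was not tested. Of mast cell and basophil markers Gzmb (1.53) and Hdc (1.71) were higher and Ms4a2 (-0.40) lower at that p among 8 (median -0.24), and of 6 megakaryocyte markers Ppbp was higher and 0 were lower (median 0.08). Both vehicle values of Ppbp lay in the background range, at 4.95 and 4.33, against 9.80 and 10.52 with the combination, so no exact fold can be read. Array medians lay between 4.36 and 4.44, and arrays have no read depth; their number limits the precision.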

How the data were processed

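The deposited table holds log2 signals, which the authors obtained by RMA in the console software that the submitters' processing notes name, Transcriptome Analysis Console; no version or genome build is named. RMA corrects background, brings the arrays to 1 distribution and summarises probes, so a global change of RNA is invisible and dim signals are compressed. RNA (10 ng) was amplified with a WT Pico kit, per the labels' protocols.

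From 72688 rows, 6732 control rows were left out. Probe sets with 1 gene symbol gave 30142 genes, 1 probe set per gene (highest mean). Limma 3.58.1 (R 4.3.3; lmFit, eBayes; group as the only term) was fitted to all 65956 features, with 2 residual and 2.59 prior degrees of freedom, two-sided tests and Benjamini-Hochberg adjustment at 0.05. The code was tested on simulated data. The members and all gene lists were chosen with earlier results of these data known. Named were all members, Id4, the 4 genes of each list with the smallest p and the 3 nearest profiles of the ID and E-protein genes with the largest difference. Marker genes and those noted in the text lie outside this rule. The 12 alternatives were the replicate block, an intensity trend, a robust prior, a second quantile normalization, centring, a filter on dim features, control rows kept, the mean over a gene's features and each array left out.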

Additional observations from a re-analysis of the deposited data

How the results depend on the processing

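Under the 12 alternatives Id2 stayed higher and Tcf3 lower, and 0 of the 6 genes passed limma's adjusted threshold. Limma's adjusted p ranged from 0.12 to 0.92 for Id2 and from 0.53 to 1.00 for Tcf3. Most alternatives could not have turned the direction of Id2 or Tcf3. Changes of the model, the features fitted or the feature mean leave their fitted differences as they are. Leaving out 1 array cannot reverse groups that do not overlap. Only centring and a second quantile normalization could, and these gave 2.93 and 3.01 for Id2 and -0.60 and -0.53 for Tcf3. A second quantile normalization gave -0.036 for Id3, and centring gave -0.040 for Id3 and -0.051 for Tcf4. Centring and a second quantile normalization moved the median of all genes to -0.039 and -0.014.

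The labels do not say that a shared replicate number means shared mice, although deviations of same-numbered arrays correlated across features (r = 0.33). With the replicate number as a block, 19 features passed in place of 2. At an unadjusted limma p under 0.05, this replicate block counted 2 members in place of 1, Tcf3 joining Id2, 6 complex partners in place of 3, 7 lymphoid genes in place of 4 and 2 turnover genes in place of 1. Turnover genes fell to 0 after quantile normalization, without dim features and with control rows kept, where Ets2 no longer counted. Without dim features the complex partners' median was -0.23, over the 13 that were left. Centring, which lowers the differences of all genes by the same amount, moved the BMP and TGF-beta median to 0.061 and that of all genes to -0.039.

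With 1 array left out at a time, a lone array is assumed to vary like the others. The difference then lay between 2.58 and 3.38 for Id2, -0.85 and -0.25 for Tcf3, -0.45 and 0.70 for Id1, -0.14 and 0.17 for Id3, -0.16 and 0.17 for Tcf4 and -0.26 and 0.061 for Tcf12. Members at an unadjusted limma p under 0.05 numbered 1 to 2: Tcf3 joined without vehicle 2 and Id1 without combination 1. Non-overlapping members numbered 4 each time, since a group of 1 array separates more easily. Counts at that p ran from 1 to 2 for complex partners, 3 to 8 for other helix-loop-helix genes, 3 to 6 for lymphoid genes, 3 to 5 for the BMP and TGF-beta pathway, 2 to 6 for upstream factors and 0 to 2 for turnover genes. Medians ran from -0.002 to 0.03, -0.12 to 0.046, -0.12 to 0.042, 0.053 to 0.20, -0.079 to 0.036 and -0.26 to -0.0082 in the same order. The cause of these shifts was not tested.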
